A study of Arabidopsis thaliana with 4 samples.

Results

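IGN23 is a stretch of intergenic DNA on chromosome 4 of Arabidopsis thaliana whose noncoding RNA was one of 7 targets of a 3′ RACE experiment, which locates the last base of an RNA. All reads carrying the locus name IGN23 were taken, 311009 of 589628 reads in the series. They came from 4 libraries, 1 per genotype. The nrpe1-11 library, from plants mutated in the gene for the largest subunit of RNA polymerase V (Pol V), gave 248926 IGN23 reads. The rrp6L1-1 and rrp6L1-2 libraries, from plants with either of 2 independent mutant alleles of the exonuclease gene RRP6L1, gave 24308 and 15845. The Col-0 wild type, the ecotype that all 3 mutants share, gave 21930. RNA came from above-ground tissue of plants aged 2.5 weeks, grown in soil with 16 hours of light and 8 hours of dark. Each library pools PCR products of 1 genotype, and the labels do not say how many plants it represents. No value below has a replicate error, no test between genotypes was possible, and the intervals (95%, exact Clopper-Pearson for shares) cover counting error only.

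Pol V is a plant-specific polymerase of RNA-directed DNA methylation. Its transcripts stay near the chromatin that made them and are bound by ARGONAUTE proteins carrying matching small RNAs, which leads to methylation of the DNA at that site. NRPE1 holds the catalytic centre of Pol V, so nrpe1 mutants serve as the control in which Pol V transcripts should be missing. RRP6L1 is a relative of RRP6, a nuclease that trims RNA from the 3′ end and works with the exosome. The comparison asked where IGN23 RNA ended when Pol V or this exonuclease was mutated.

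Length 1 of IGN23 is position 2577995 of chromosome 4, and lengths grow along the plus strand. Apart from a few far longer nrpe1-11 ends described below, the ends reached length 182, position 2578176, though not every position up to there held an end. This stretch overlapped no annotated gene in TAIR10.1. AT4G05030, annotated as a copper transport family protein, lies 21 nt before length 1 and is transcribed the opposite way. AT4G05040, an ankyrin repeat family protein on the plus strand, starts 418 nt beyond length 182. The reference changes character along the locus: A and T make up 47.1% of the bases from 1 to 87 nt and 95.8% from 88 to 182 nt. The first 110 nt, which held between 99.1% and 99.99% of the ends of each library, are printed here once per library from RefSeq (TAIR10.1, chr4:2577995-2578104, plus strand). Capitals mark the 6 most frequent end positions of that library, so that the places where the RNA stopped can be compared letter by letter.
nrpe1-11: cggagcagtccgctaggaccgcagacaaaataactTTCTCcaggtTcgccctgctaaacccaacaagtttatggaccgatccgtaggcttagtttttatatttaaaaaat
rrp6L1-1: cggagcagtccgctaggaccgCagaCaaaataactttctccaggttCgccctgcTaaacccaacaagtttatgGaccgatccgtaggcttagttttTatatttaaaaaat
rrp6L1-2: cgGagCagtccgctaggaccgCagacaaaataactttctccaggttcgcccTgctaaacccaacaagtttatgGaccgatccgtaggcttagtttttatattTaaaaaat
Col-0: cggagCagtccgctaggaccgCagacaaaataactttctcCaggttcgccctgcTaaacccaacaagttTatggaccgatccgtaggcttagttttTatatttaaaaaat
In nrpe1-11 the capitals stand together in one short pyrimidine stretch, with 1 more a few bases on. In the other 3 libraries they are scattered over the locus, and 5 of 6 in rrp6L1-1, 5 of 6 in rrp6L1-2 and 6 of 6 in Col-0 stand directly before an a, against 0 of 6 in nrpe1-11.

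The nrpe1-11 library held almost nothing but IGN23. Its IGN23 reads made up 99.99% of the library, and 14 reads came from the other loci. IGN23 took 22.1% of the reads in rrp6L1-1, 17.7% in rrp6L1-2 and 15.5% in Col-0. Because pooled PCR products were sequenced, these shares and the large read number do not measure how much IGN23 RNA each genotype held. The same library and depth do give a precise view of where the nrpe1-11 products ended.

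Nearly all nrpe1-11 products ended at 1 base. The end at 40 nt (position 2578034) held 229260 of 248926 nrpe1-11 ends, 92.1% (interval 92.0% to 92.2%). The same base held 59 ends in rrp6L1-1 (0.243%), 27 in rrp6L1-2 (0.170%) and 42 in Col-0 (0.192%). By frequency it was the 36th, 34th and 38th position of those 3 libraries. Across the 38 flow cell tiles that the reads came from, the nrpe1-11 share at 40 nt ran from 90.1% to 93.0%, so no tile gave the peak alone. The 10th, 25th, 50th, 75th and 90th percentiles of length were all 40 nt in nrpe1-11. They were 14, 22, 47, 74 and 97 nt in rrp6L1-1, then 6, 17, 26, 60 and 90 nt in rrp6L1-2, and 6, 24, 55, 84 and 97 nt in Col-0.

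**Figure D1:**
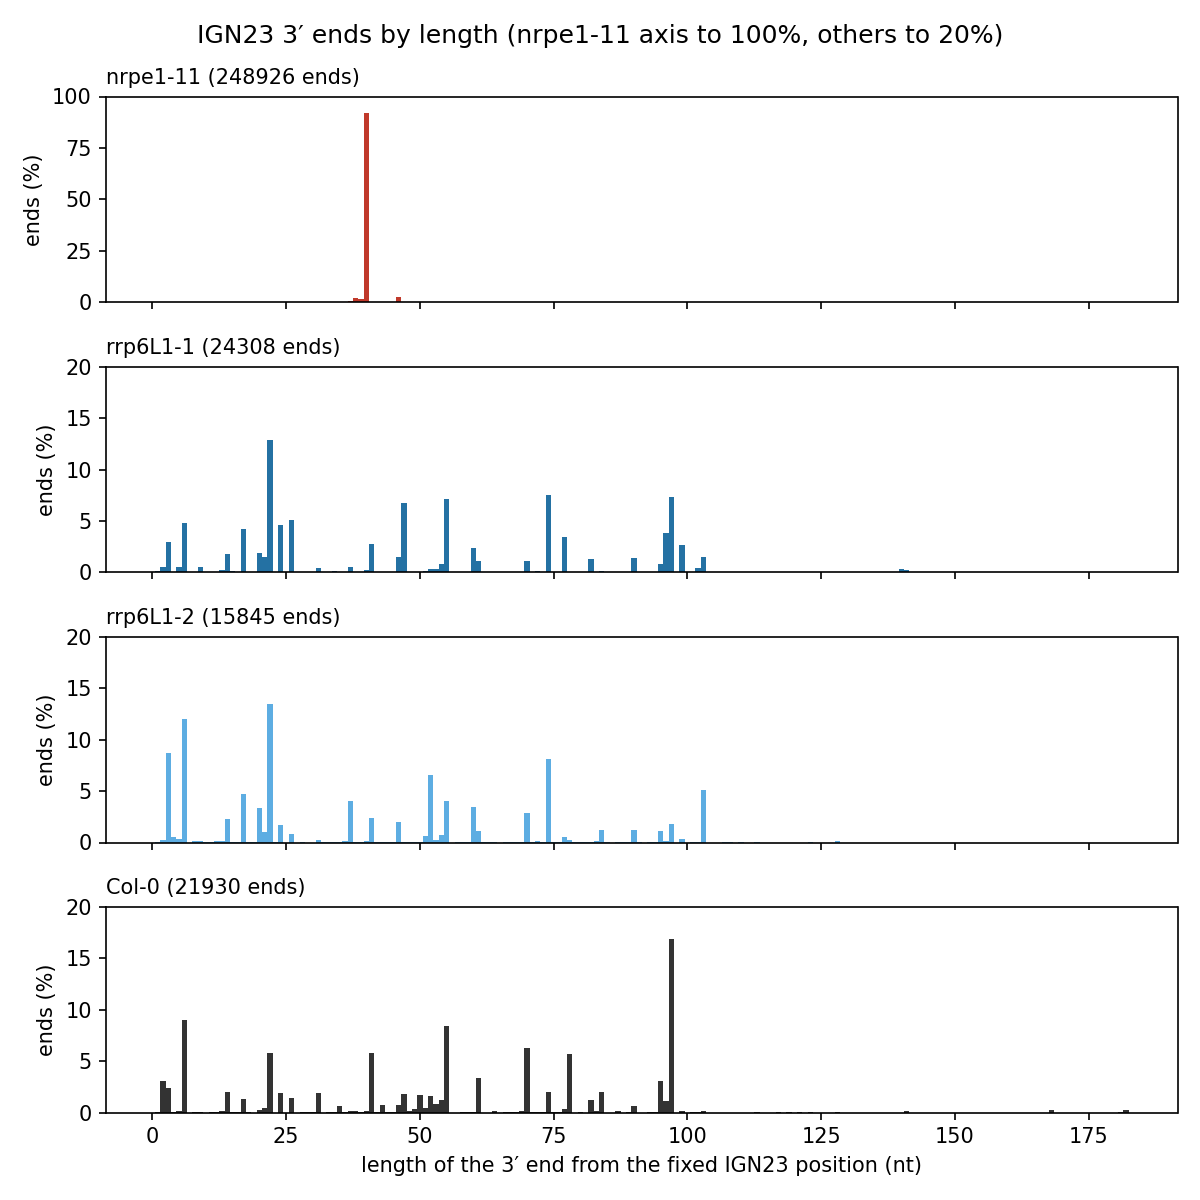
Share of IGN23 3′ ends (percent, vertical axis) at each length (nt, horizontal axis) in nrpe1-11, rrp6L1-1, rrp6L1-2 and Col-0, with the nrpe1-11 axis reaching 100% and the others 20%; ends longer than 400 nt are not drawn. The nrpe1-11 ends stand at 40 nt with 92.1%, while the highest position of the other libraries, at 97 nt in Col-0, holds 16.8%.

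The spread of the ends differed as much as their place. The effective number of end positions, which is the inverse of the summed squared shares and equals 1 when all ends lie at 1 base, was 1.18 in nrpe1-11. It was 18.6 in rrp6L1-1, 15.4 in rrp6L1-2 and 15.4 in Col-0. In nrpe1-11 1 position held 90% of the ends, where 23 positions were needed in rrp6L1-1, 21 in rrp6L1-2 and 24 in Col-0. The nrpe1-11 library, the deepest in reads, used 53 distinct positions, against 115 in rrp6L1-1, 98 in rrp6L1-2 and 110 in Col-0. At an equal depth of 15845 reads, which are PCR copies and not counted molecules, the number of positions expected from each profile was 30.6 in nrpe1-11, 108 in rrp6L1-1, 98 in rrp6L1-2 and 104 in Col-0. At the other 6 loci, in the 3 libraries with deep reads there, the most frequent position held between 8.81% and 66.8% of the ends and the effective number lay between 2.14 and 19.5. The narrowest of those, IGN17 in rrp6L1-1, was thus still wider than IGN23 in nrpe1-11, though nrpe1-11 had too few reads at the other loci for the same comparison within that library.

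The nrpe1-11 ends stopped short of most of the locus. From 49 to 487 nt there was not 1 end among 248926, which allows a share of up to 0.00148%. That stretch held 45.2% of the ends in rrp6L1-1, 40.8% in rrp6L1-2 and 59.5% in Col-0. Over all ends, nrpe1-11 had a median of 40 nt and Col-0 one of 55 nt, but among ends of 1 to 48 nt, the range nrpe1-11 reached, it was 40 nt in nrpe1-11, 22 nt in rrp6L1-1, 19 nt in rrp6L1-2 and 22 nt in Col-0, so the direction turned. The leading Col-0 end at 97 nt, with 3691 reads (16.8%), was among the positions at 0 in nrpe1-11; it held 7.30% in rrp6L1-1 and 1.82% in rrp6L1-2. Ends at 55 nt, the third position of Col-0 with 8.38%, were likewise at 0 in nrpe1-11 and made up 7.16% in rrp6L1-1 and 4.03% in rrp6L1-2. Of the 22 positions that are the 6 most frequent of a library or the 12 most frequent of nrpe1-11, 6 had no nrpe1-11 end: 52, 55, 70, 74, 97 and 103 nt. In the AT-rich part from 88 nt on, up to 400 nt, lay 18.7% of the ends in rrp6L1-1, 10.1% in rrp6L1-2 and 23.1% in Col-0.

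**Figure D2:**
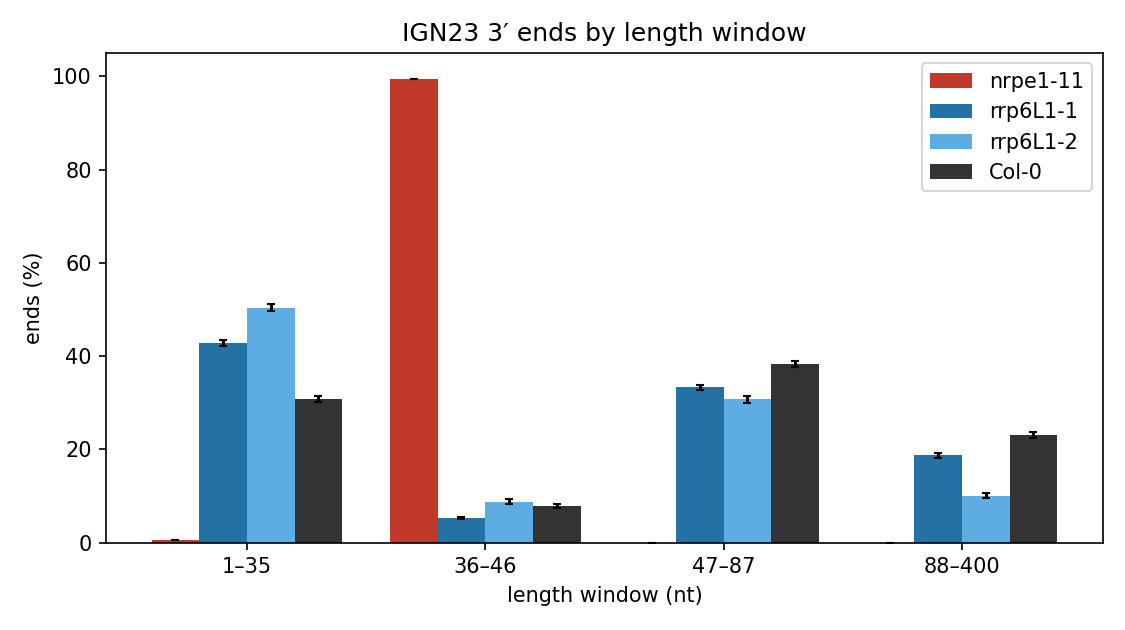
Share of IGN23 ends (percent) in 4 length windows for nrpe1-11, rrp6L1-1, rrp6L1-2 and Col-0; bars are shares of all ends in a library and error bars are exact 95% counting intervals. The window from 36 to 46 nt holds 99.5% of the nrpe1-11 ends and 5.29%, 8.81% and 7.82% of the others, and the windows beyond it are close to empty in nrpe1-11.

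Around the peak, the minor nrpe1-11 ends formed a tail on the short side and 1 further peak on the long side. There were 4506 ends at 39 nt (1.81%), 4884 at 38 nt (1.96%), 1124 at 37 nt (0.452%) and 468 at 36 nt (0.188%). At 35 and 34 nt there were 126 and 89. Beyond 40 nt the number dropped at once, to 292 ends at 41 nt (0.117%), and the next 4 bases held 3, 11, 65 and 50. The second most frequent nrpe1-11 position was 46 nt, with 7024 ends (2.82%), and only 2 ends at 47 nt and 1 at 48 nt followed. The tail lies over the pyrimidine stretch shown in capitals above, and neither 40 nt nor 46 nt stands before a genomic A.

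The other libraries used this window too, but at other bases. Of the ends from 36 to 46 nt, 41 nt held 52.2% in rrp6L1-1, 27.1% in rrp6L1-2 and 73.8% in Col-0, 1 base beyond the nrpe1-11 peak. The base at 41 nt is the last before a genomic A, and 40 nt is not. In rrp6L1-2 the leading position of the window was 37 nt, with 632 ends (3.99% of all ends), against 135 in rrp6L1-1 (0.555%) and 30 in Col-0 (0.137%). The 46 nt end was present in every library, at 2.82% in nrpe1-11, 1.49% in rrp6L1-1, 1.96% in rrp6L1-2 and 0.702% in Col-0. At 36, 38, 39 and 40 nt, each of the other libraries had at most 0.243% of its ends.

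Shorter than 36 nt, the nrpe1-11 library held 1215 ends, 0.488% of its total, at all 35 positions. This window held 42.7% of the ends in rrp6L1-1, 50.4% in rrp6L1-2 and 30.7% in Col-0. Within it the nrpe1-11 ends were most frequent at 22 nt, with 245 reads or 20.2% of the window, and 22 nt was also first in rrp6L1-1 (30.1%) and rrp6L1-2 (26.7%) and second in Col-0 (18.7%). Next in nrpe1-11 came 35 nt with 126 reads, 21 nt with 125 and 24 nt with 100. Ends at 6 nt, which were first in the Col-0 window with 29.1%, numbered 15 in nrpe1-11. Counted within the window alone and position by position, the nrpe1-11 profile overlapped by 55.9% with that of rrp6L1-1, by 44.5% with rrp6L1-2 and by 49.4% with Col-0. The other 3 libraries overlapped with each other by 62.4% to 73.0% there. Within each library, all IGN23 reads came from 1 run and lane. Whether reads were exchanged between barcodes was not tested; the 14 nrpe1-11 reads at other loci and the count of 0 at 97 nt stand beside these 1215 ends.

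**Figure D3:**
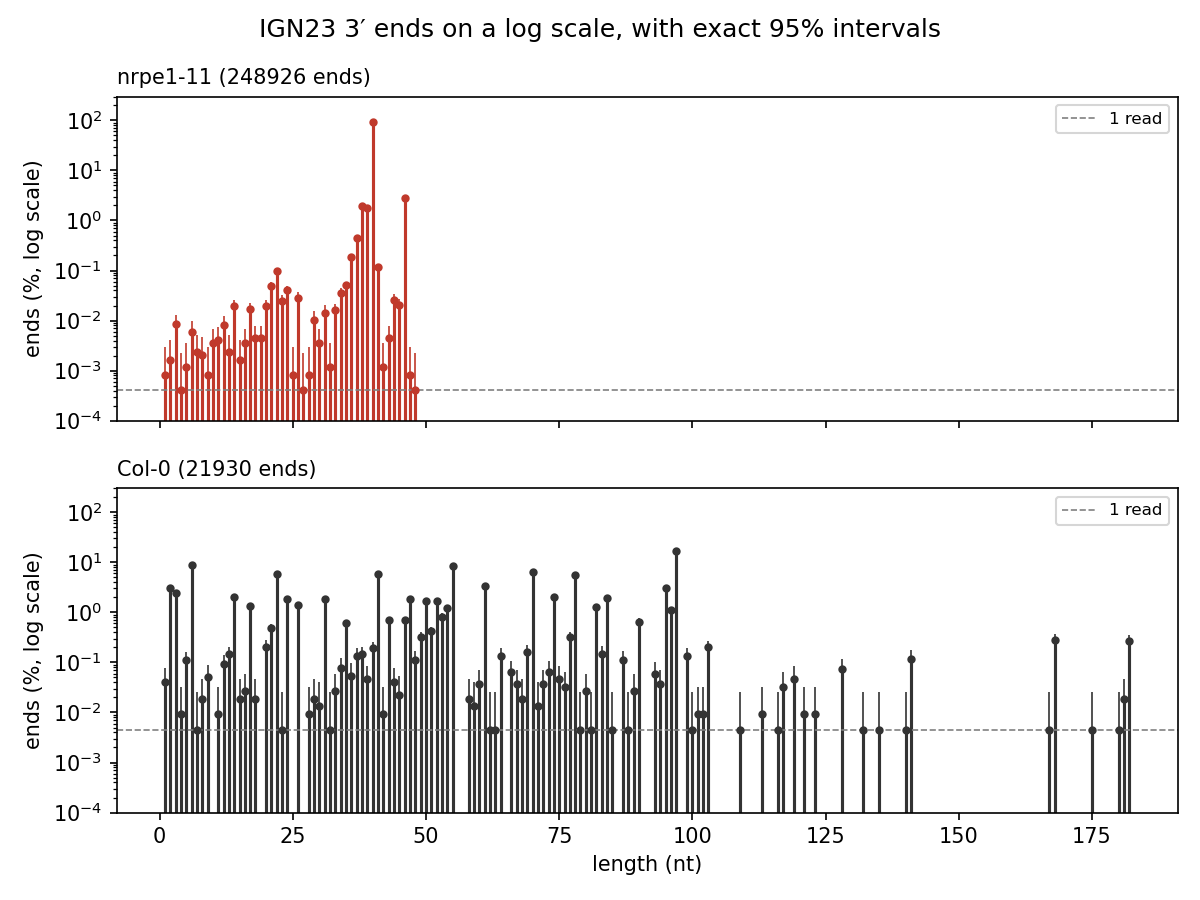
Share of IGN23 ends (percent, log scale) at each length (nt) in nrpe1-11 and Col-0, drawn only where at least 1 end was read and without the ends longer than 400 nt; points are shares, error bars exact 95% counting intervals, and the dashed line is the share of 1 read. In nrpe1-11 the low positions run from 1 to 48 nt around the peaks at 40, 46 and 22 nt with no further end up to 400 nt, whereas Col-0 ends go on beyond 97 nt.

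Over the whole locus the nrpe1-11 profile overlapped by 2.93% with rrp6L1-1, 3.42% with rrp6L1-2 and 1.91% with Col-0. The rrp6L1 alleles overlapped by 63.4% with each other, and with Col-0 by 53.3% in rrp6L1-1 and 48.3% in rrp6L1-2. Of the 53 nrpe1-11 positions, 44 were used in Col-0 as well, where 44 of the 48 positions from 1 to 48 nt were in use. The low figure for Col-0 comes with unequal shares at shared positions. It also comes with 66 Col-0 positions that had no nrpe1-11 end. The largest gap between the cumulative curves (the Kolmogorov-Smirnov distance, from 0 for equal curves to 1) was 0.534 for nrpe1-11 with either rrp6L1 allele and 0.657 for nrpe1-11 with Col-0. It was 0.144 for rrp6L1-1 with Col-0, 0.236 for rrp6L1-2 with Col-0 and 0.152 between the alleles.

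**Figure D4:**
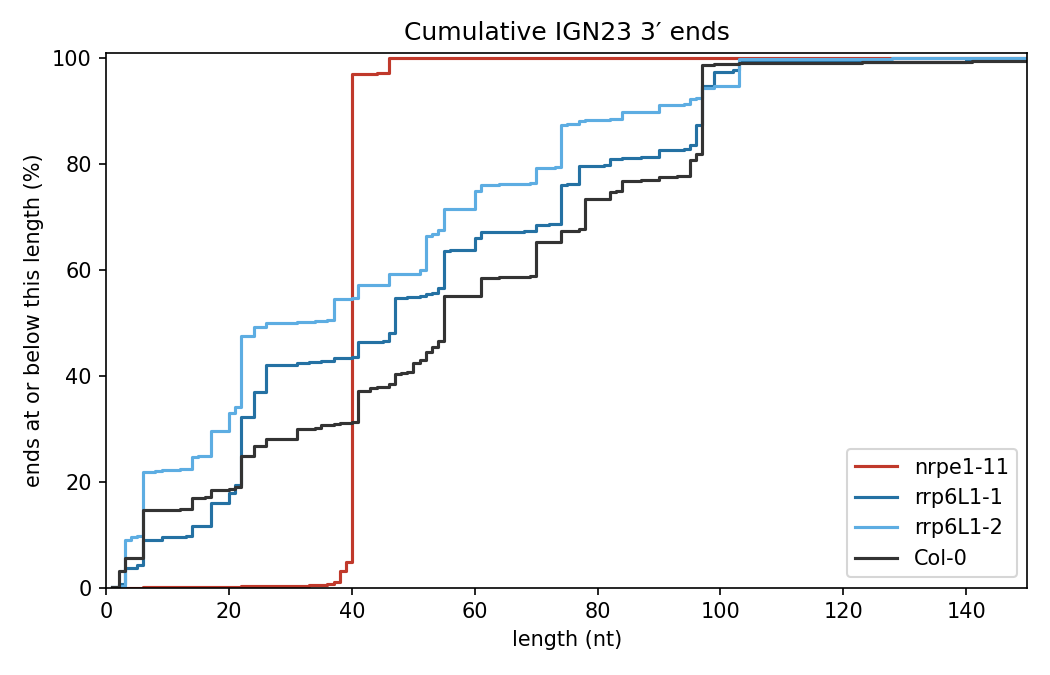
Cumulative share of IGN23 ends (percent, vertical axis) up to each length (nt, horizontal axis, drawn to 150 nt) in nrpe1-11, rrp6L1-1, rrp6L1-2 and Col-0. The nrpe1-11 curve climbs in 1 step at 40 nt. Both rrp6L1 curves lie above that of Col-0 from 21 to 96 nt and again from 103 nt to the axis end.

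By share of ends, the base after the end separated nrpe1-11 from the rest. In nrpe1-11, 0.364% of the ends (905 reads) stood directly before a genomic A. In rrp6L1-1 the share was 69.8%, in rrp6L1-2 72.5% and in Col-0 77.7%. The 6 most frequent nrpe1-11 positions, with 99.3% of its ends, set its share, and 0 of them stood before an A. Counted by position the libraries were closer: 14 of 53 in nrpe1-11 stood before an A. The counts were 38 of 115 in rrp6L1-1, 30 of 98 in rrp6L1-2 and 35 of 110 in Col-0. The assay adds a poly(A) tail to the RNA, so an end inside a genomic run of A cannot be told from the tail, and such an end can be recorded at the base before the run. The coordinates were read at the offset that puts the fewest rrp6L1 and Col-0 ends on an A, so the low share of such ends supports nothing by itself. At that offset it was 0.0683% in nrpe1-11, 0.498% in rrp6L1-1, 0.884% in rrp6L1-2 and 0.310% in Col-0, while A made up 34.1% of the bases from 1 to 182 nt. If ends fell evenly over those 182 positions and all A bases were lost in this way, 54.4% of the ends would be recorded before an A. The shares of the rrp6L1 and Col-0 libraries lay above this value and that of nrpe1-11 far below it. The offset was chosen on the rrp6L1 and Col-0 ends themselves. That their shares lay above the even value is therefore no independent result.

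The contrast was as large within the range that nrpe1-11 ends reached. Among ends of 1 to 48 nt, 0.363% stood before an A in nrpe1-11, 72.2% in rrp6L1-1, 78.1% in rrp6L1-2 and 77.7% in Col-0. The even value for 1 to 48 nt is 45.8%. With the 40 nt position left out, the nrpe1-11 share was 4.60%. The 1215 nrpe1-11 ends of 1 to 35 nt were closer to the other libraries, with 50.3% before an A (interval 47.4% to 53.1%) against 86.1% in rrp6L1-1, 87.0% in rrp6L1-2 and 83.5% in Col-0. The even value for that window is 57.1%. At the other 6 loci, the share in the rrp6L1 and Col-0 libraries ran from 17.7% (IGN17 in rrp6L1-1) to 92.7%, with a median of 73.7% over 18 values.

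**Figure D5:**
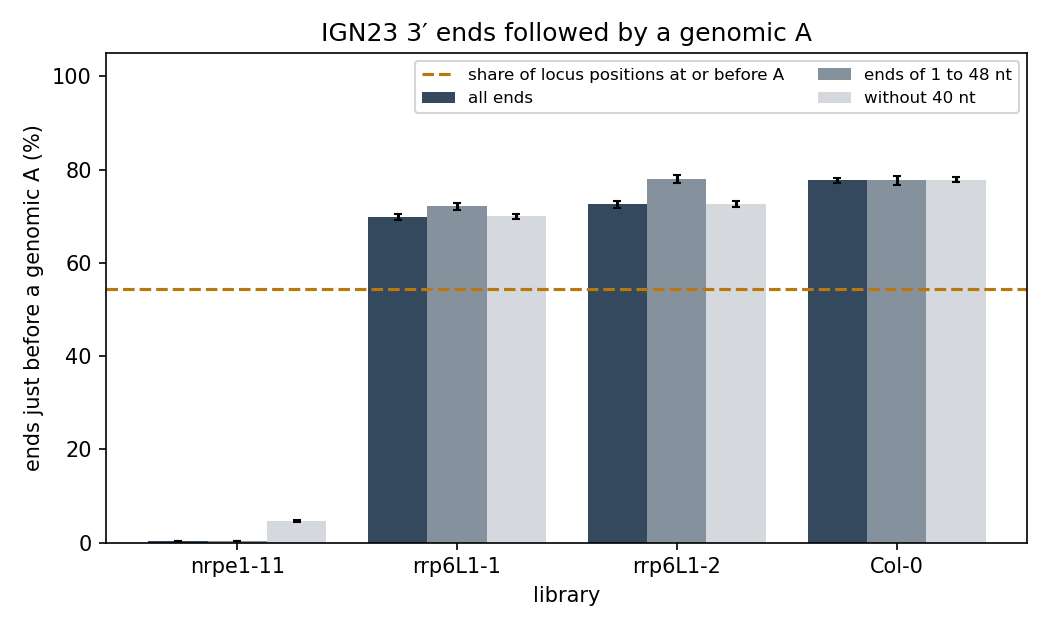
Share of IGN23 ends that stand directly before a genomic A (percent) in nrpe1-11, rrp6L1-1, rrp6L1-2 and Col-0, for all ends, for ends of 1 to 48 nt and with the 40 nt position left out; error bars are exact 95% counting intervals and the dashed line marks the 54.4% of locus positions, from 1 to 182 nt, that are an A or precede one. For positions from 1 to 48 nt alone the value is 45.8%, which is not drawn. The nrpe1-11 bars reach at most 4.60%, while all bars of the other libraries exceed 69%.

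A few nrpe1-11 products were far longer than any other. There were 21 nrpe1-11 ends beyond 400 nt (0.00844%, interval 0.00522% to 0.0129%), at 5 positions. None was read in rrp6L1-1, rrp6L1-2 or Col-0, where the counts allow shares of up to 0.0152%, 0.0233% and 0.0168%, above the nrpe1-11 share, so a difference was not detectable at these depths. The longest ends of those libraries were 182, 128 and 182 nt, and the longest at any other locus was 265 nt. Of the 21 reads, 16 ended at 979 nt (position 2578973), and 1 each at 972, 977 and 978 nt. The mapping scores of these reads, given below, were often under the top score. These 16 reads came from 14 tiles, but without molecular identifiers they too may be PCR copies of fewer molecules. All 19 ends from 972 to 979 nt lie within AT4G05040 in sense direction, between annotated exons of that gene. The 979 nt end is 36 nt past the exon that ends at 2578937 and 262 nt before the next exon, at 2579235, and the coding sequence starts downstream at 2579888. The remaining 2 reads ended at 488 nt (position 2578482), which is 112 nt before AT4G05040. They were neighbours on the flow cell, on 1 tile and 18 and 5 coordinate units apart, so they need not be separate molecules.

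The surroundings of these 2 places differ in their A content. Each is shown with 15 bases on either side from RefSeq (TAIR10.1, plus strand), the end in capitals, the first at chr4:2578467-2578497 and the second at chr4:2578958-2578988.
end at 488 nt: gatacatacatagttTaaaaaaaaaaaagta
end at 979 nt: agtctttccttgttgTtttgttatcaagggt
The 488 nt end stands before a genomic run of 12 A, to which an oligo(dT) primer can anneal without an added tail, and whether that happened was not tested. The base directly after the 979 nt end is a T.

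Between the rrp6L1 mutants and Col-0 the IGN23 ends differed in shares more than in positions. The median was 47 nt in rrp6L1-1 (interval 47 to 47 nt), 26 nt in rrp6L1-2 (26 to 37 nt) and 55 nt in Col-0 (55 to 55 nt). Short ends were more frequent in both mutants, 42.7% and 50.4% against 30.7% from 1 to 35 nt. The bases with more ends were in part shared between the alleles and in part not. From 21 to 35 nt stood 24.8% of the ends in rrp6L1-1, 17.4% in rrp6L1-2 and 12.1% in Col-0. From 1 to 20 nt the shares were 17.9% in rrp6L1-1, 33.0% in rrp6L1-2 and 18.6% in Col-0. The net excess of rrp6L1-1 thus lay in the farther window and most of that of rrp6L1-2 in the nearer one. The 22 nt end held 12.9% in rrp6L1-1, 13.5% in rrp6L1-2 and 5.74% in Col-0, and the 74 nt end held 7.49% in rrp6L1-1, 8.08% in rrp6L1-2 and 2.05% in Col-0. Both positions were thus higher in either allele than in the wild type. So was 60 nt, with 2.34% in rrp6L1-1, 3.45% in rrp6L1-2 and 0.0365% in Col-0. Both alleles were lower at 70 nt, with 1.12% in rrp6L1-1, 2.84% in rrp6L1-2 and 6.31% in Col-0. At 78 nt they were lower too, with 0.0247%, 0.259% and 5.65% in the same order. Positions where the alleles went apart follow below. The order of the medians was not stable: with the leading position of each library dropped, rrp6L1-1 stood at 54 nt and Col-0 at 50 nt. With all positions before an A dropped, rrp6L1-2 and Col-0 both stood at 51 nt.

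At several positions the alleles differed from each other. Ends at 47 nt made up 6.73% in rrp6L1-1, 0.0189% in rrp6L1-2 and 1.81% in Col-0. Ends at 26 nt, before a run of 4 A, made up 5.12% in rrp6L1-1, 0.808% in rrp6L1-2 and 1.40% in Col-0. Conversely, 52 nt held 0.366% in rrp6L1-1, 6.53% in rrp6L1-2 and 1.65% in Col-0. At 103 nt, before a run of 6 A, the shares were 1.54%, 5.10% and 0.201% in the same order of libraries. Ends at 3 nt made up 2.96% in rrp6L1-1, 8.66% in rrp6L1-2 and 2.39% in Col-0. With 1 library per allele, such differences cannot be told apart from differences between PCR pools. None of these 5 positions was frequent in nrpe1-11, which had 2 ends at 47 nt, 72 at 26 nt, 0 at 52 and 103 nt and 21 at 3 nt.

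Mapping scores also differed at the peak. The deposited score ran from 41 to 44 in each library, and the top score was given to 96.1% of the IGN23 reads in nrpe1-11, 83.3% in rrp6L1-1, 82.4% in rrp6L1-2 and 80.4% in Col-0. Within nrpe1-11 it was given to 97.7% of the reads ending at 40 nt and to 77.9% of the others. The latter value was near those of the other libraries. At 40 nt those libraries gave it to 78.0% of 59 reads in rrp6L1-1, 59.3% of 27 in rrp6L1-2 and 71.4% of 42 in Col-0. Among the far longer nrpe1-11 reads, the top score went to 7 of the 16 that ended at 979 nt. It went to none of the single reads at 972, 977 and 978 nt, and to 1 of the 2 at 488 nt. The placement of these long ends is thus less sure than that of the peak. The part of the score in the results was not tested.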

How the data were processed

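For each library the authors deposited a table in which every line is 1 read. Per the file headers, a line gives the locus, read name, mapping quality score, strand, genomic 3′ end and transcript length in nt (other columns of values: 0). Per the labels' protocols, total RNA was tailed with poly(A) polymerase, reverse transcribed from oligo(dT) and amplified by nested PCR. Bowtie2, SAMtools, bedtools, cutadapt 1.9.1 and bcl2fastq 2.16.0.10 are named, with the TAIR10 build, in the submitters' processing notes; what each did is not given in the sources used. The deposited length is the distance from 1 fixed position, and its link to the primer is not given. The deposited strand is minus, opposite to the direction in which length grows. Sequence came from TAIR10.1; with ends read 1 base downstream, 69.8% to 77.7% of the rrp6L1 and Col-0 ends would fall on an A, and 1 base upstream 4.11% to 14.1%, against 0.310% to 0.884% as read; coordinates were therefore read as 1-based.

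IGN23 had 0 repeated lines. Depth was 15845 to 248926 IGN23 reads. Reads carry no molecular identifiers and are not independent molecules. Shares have exact Clopper-Pearson intervals and medians order-statistic intervals, both 95%. Named positions are the 6 most frequent of each library, the 12 most frequent of nrpe1-11 and those beyond 400 nt; others given as values were chosen after seeing the data. The locus and these measures were chosen with earlier results of these data known. The measures were tested on simulated data. Python 3.11.15, pandas 2.3.3, scipy 1.17.1 and matplotlib 3.10.9 were used.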

Additional observations from a re-analysis of the deposited data

How the results depend on the processing

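No paired analysis was possible because each genotype has 1 library. The median difference from Col-0 was -15 nt in nrpe1-11, -8 nt in rrp6L1-1 and -29 nt in rrp6L1-2. In that order it was -15.03, -5.99 and -15.2 nt by the mean, -28.5, -1 and -1 nt with each position of at least 2 ends counted once, -11, 4 and -9 nt with the leading position of each library dropped, and -11, -4 and 0 nt without positions before a genomic A. Without ends longer than 48 nt, chosen after seeing the data, it was 18, 0 and -3 nt, so the nrpe1-11 direction turned where only lengths that nrpe1-11 reached were compared. The causes of the other shifts were not tested. Keeping repeated lines, of which IGN23 had 0, could change nothing, nor could leaving out ends beyond 400 nt for the rrp6L1 alleles, which had none; for nrpe1-11 leaving out those ends left -15 nt. The nrpe1-11 peak of 92.1% became 96.7% within 5 nt of 40 nt and 92.4% without positions before A. The nrpe1-11 ends in common with Col-0 came to 4.05% in bins of 5 nt, 6.53% in bins of 10 nt and 7.85% without the most frequent positions, against 1.91%. The effective number of nrpe1-11 positions was 4.06 without the 40 nt position and 1.17 without positions before A. Of 53 distinct nrpe1-11 positions, 9.43% lay beyond 400 nt. With 1 library per genotype, no setting shows how far the values vary between plants.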
